A study of Danio rerio with 11 samples.

Results

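The genes described here encode the machinery of mitochondrial respiration and the mitochondrial ribosome. The respiratory chain consists of complexes I to IV of the inner mitochondrial membrane, which pass electrons from NADH and succinate to oxygen and pump protons, and of complex V, the ATP synthase, which uses the proton gradient. Most subunits are encoded in the nucleus and imported, and a small remainder is made inside the organelle by the mitochondrial ribosome, whose proteins are themselves nuclear. In embryos these genes are on in nearly every cell, and muscle and heart are known for high demand. Members were the probe sets of the Affymetrix Zebrafish Genome Array with a single gene symbol starting with nduf, sdh, uqcr, cox plus a digit, atp5, cyc1, mrpl or mrps. This gave 168 of 15502 tested probe sets and 150 of 8793 named genes, each gene represented by its brightest probe set over all arrays. The 150 genes comprised 33 of complex I, 4 of complex II, 8 of complex III, 14 of complex IV, 18 of complex V, 14 assembly factors that carry one of the prefixes, 21 of the small and 38 of the large mitochondrial ribosome subunit. The first 6 classes are called the respiratory genes here (91 genes), and the last 2 the ribosome genes (59 genes).

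The arrays compared spadetail (spt) embryos, homozygous for the b104 allele of tbx16, with wild-type embryos at 2 stages. At 4/5 somites there were 3 spt and 2 wild-type arrays of intermediate mesoderm (IM), and at 21 somites 3 spt and 3 wild-type arrays of tail tissue. The IM samples were cells sorted by flow cytometry for GFP driven by the pax2a promoter, a transgene that both genotypes carried, and their RNA was amplified. The tail samples were dissected somites and presomitic mesoderm behind the yolk extension without the tail tip, so they also held notochord, spinal cord and other tissue, and their RNA was not amplified. Replicates came from separate clutches. In such bulk samples, fewer cells of a type and less RNA per cell cannot be told apart.

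Signals are the deposited intensities on a linear scale. The median signal of an array was 152 to 167 in IM and 261 to 293 in tail. The mutated gene was checked first: tbx16 had signals of 420, 415 and 453 in spt tail, against 1540, 948 and 1220 in wild-type tail (log2 fold change -1.49, SE 0.18, limma adjusted p = 0.0065), whereas its second probe set had 412, 489 and 465 in spt tail and 944, 692 and 695 in wild-type tail (log2 fold change -0.75, SE 0.16, limma adjusted p = 0.108). In IM the first probe set lay between 76.3 and 106 and the second between 23.1 and 81.5, which gave no check. The brighter probe set of pax2a, whose promoter drove the sorting transgene, had 1060, 1280 and 530 in spt IM and 274 and 269 in wild-type IM (log2 fold change 1.66, SE 0.48, limma adjusted p = 0.624), and the dimmer one was at -0.45.

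The members were bright on these arrays. Of 150, 143 had a signal of at least 100 on at least 50% of the IM arrays (95.3%, against 70.8% of all probe sets), and 148 did so in tail (98.7%, against 84.7%). In IM 3 members did not reach 100 on any array, and in tail every member did on at least 1. The probe set of cox6b2, a copy of subunit 6B of cytochrome c oxidase, had 8016, 9370 and 8403 in spt IM and 8432 and 9426 in wild-type IM.

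In IM, the question was whether these genes differed between spt and wild-type sorted cells. None of the 150 members passed the adjusted threshold of 0.05, and none of the 15502 probe sets did (smallest limma adjusted p, 0.337 among members and 0.0634 among all). More members had a lower than a higher value in spt, 105 of 150 (70%), against 50.9% of all probe sets. The median log2 fold change was -0.27 for the respiratory genes and -0.29 for the ribosome genes, against -0.01 for all probe sets. At an unadjusted p under 0.05, 11 members were lower (7.33%, against 3.63% of all probe sets), and 0 were higher, against 3.57%. For 34 members all spt arrays lay below both wild-type arrays (22.7%, against 14.5% of all probe sets), and for 5 all lay above (3.33%, against 12.4%). One fit of all 11 arrays shares its spread between the stages. In it, 5 members were called lower (ndufb2, mrpl49, atp5mea, atp5f1e and sdhaf2, limma adjusted p from 0.0116 to 0.0445), which is 3.33%, against 1.08% of all probe sets. It called 0 higher, against 1.1%. The members scattered less in tail (median SD 0.13 in spt and 0.21 in wild type) than in IM (0.41 and 0.27). The standard errors of this shared fit can thus be too small for IM. Single probe sets were also tested with the study's limits, an unadjusted p under 0.05 and a limit of 1.5 on the fold. By this test 8 members were lower (5.33%, against 1.26% of all) and 0 higher, against 1.38%. It was run on the values as normalized here. The study used other software and invariant set normalization, so these counts are not those of its own test.

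Single arrays weighed on these values. Replicate 5 of spt IM held the lowest signal of the stage for 62 of the 150 members (41.3%, against 21.9% of all probe sets), and replicate 2 of wild-type IM the highest for 59 (39.3%, against 19%). Per array, the median deviation of the respiratory genes from their stage mean was 0.03, 0.00 and -0.31 on the log2 scale in spt replicates 3, 4 and 5, and 0.03 and 0.25 in wild-type replicates 1 and 2. Wild-type replicate 1 thus lay close to spt replicates 3 and 4. For the ribosome genes the deviations were -0.11, 0.01 and -0.29 in spt and 0.08 and 0.30 in wild type, without overlap. Without wild-type replicate 2 the median of the respiratory genes was -0.08, with 52 of 91 lower, and that of the ribosome genes -0.20, with 34 of 59 lower. The count lower at an unadjusted p under 0.05 was 20 without spt replicate 4. It fell without either wild-type array, which left a lone wild-type array. No share of all probe sets was computed for these counts, so a general change cannot be told from one of the members. The members also scattered more within each group than other probe sets, with a median SD of 0.41 on the log2 scale in spt IM (0.28 for all probe sets) and 0.27 in wild-type IM (0.16 for all).

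**Figure D1:**
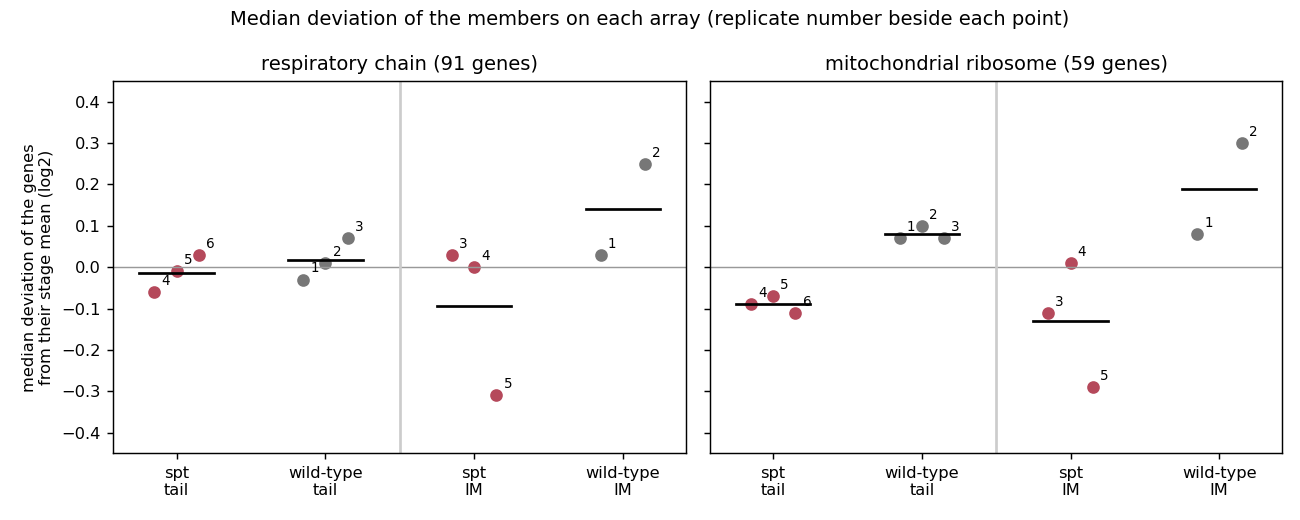
Median deviation of the 91 respiratory genes (left) and the 59 ribosome genes (right) from their mean over the arrays of the same stage, on the log2 scale, for each array (points; lines, means of the arrays). The ribosome genes of the tail lay between -0.11 and -0.07 on spt arrays and between 0.07 and 0.10 on wild-type arrays, and those of IM between -0.29 and 0.01 on spt arrays and between 0.08 and 0.30 on wild-type arrays.

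Summed signals of several marker lists were apart between the genotypes in IM, although no gene of these lists passed the threshold there. The summed signal of 5 embryonic globins was 614 to 650 in spt and 8601 to 9383 in wild type, and that of 12 other erythroid genes 1428 to 1754 in spt and 5546 to 7217 in wild type. The authors had excluded a further wild-type IM array that did not cluster with the others. They reported far lower red blood cell markers on it, so the separation of these sums is not independent of that exclusion. The 10 measured intermediate mesoderm and pronephros genes summed to 11893 to 19669 in spt and 19855 to 21890 in wild type, 18 stress and dissociation genes to 18642 to 24589 in spt and 15158 to 16859 in wild type, and 10 genes of the p53 response to 4280 to 5056 in spt and 7267 to 7303 in wild type. In all these lists the sums and the medians differed. The median log2 fold change was -1.26 for the globins, with 5 of 5 lower, and -0.30 for the other erythroid genes, with 10 of 12 lower. For the last 3 lists the medians were -0.09, -0.07 and -0.13. The genes of these 3 split into 5 higher and 5 lower, 9 higher and 9 lower, and 2 higher and 8 lower. The sums of the myogenic, presomitic, notochord, neural, epidermal and endothelial lists overlapped between the genotypes. Those of fast and slow muscle genes were 4290 to 5345 in spt and 6269 to 6489 in wild type. Yolk and endoderm genes summed to 933 to 1230 in spt and 1264 to 1276 in wild type. The part of these differences in the values of the respiratory and ribosome genes was not tested.

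Complex I takes electrons from NADH. In IM, 26 of its 33 members had a lower value in spt, with a median log2 fold change of -0.31, and 2 were lower at an unadjusted p under 0.05. The lowest p of all members belonged to ndufb2, an accessory subunit of the membrane arm, with signals of 181, 178 and 117 in spt and 545 and 476 in wild type. All spt arrays lay below both wild-type arrays (log2 fold change -1.66, SE 0.27, unadjusted p = 0.00155, limma adjusted p = 0.337). A second accessory subunit, ndufa11, had 398, 319 and 287 in spt and 652 and 622 in wild type (log2 fold change -0.99, SE 0.29, limma adjusted p = 0.634). The study had picked ndufb2, under an older name, from these same IM arrays as a candidate for in situ hybridization. The same holds for atp5mea, atp5f1e, mrps6 and cox14, so the direction of these genes here is not independent evidence. By that semi-quantitative method, the paper listed atp5mea as lower in spt embryos and cox14 as higher. It listed ndufb2, atp5f1e and mrps6 as the same in both genotypes. Expression of ndufb2 and atp5f1e was listed in paraxial mesoderm and not in IM, and that of atp5mea, mrps6 and cox14 as ubiquitous.

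Complexes II, III and IV had no member at an unadjusted p under 0.05 in IM by its brightest probe set. A dimmer probe set of uqcrc2a, in complex III, was lower in spt without overlap. Its log2 fold change was -0.97 (SE 0.32, limma unadjusted p = 0.0273, adjusted p = 0.675). In complex II, succinate dehydrogenase, 3 of 4 members had a higher value in spt IM, with a median of 0.20 and a range from -0.24 (sdhb, the iron-sulfur subunit) to 0.33 (sdha, the flavoprotein). In complex III, 5 of 8 were lower, with a median of -0.13. Its cytochrome c1, cyc1, had 1218, 897 and 844 in spt and 732 and 648 in wild type, without overlap but at a log2 fold change of 0.37 (SE 0.33, limma adjusted p = 0.749), and the small subunit uqcrq was at -0.40 (SE 0.30). In complex IV, 10 of 14 were lower, with a median of -0.14. The values of cox6a1, 763, 689 and 666 in spt and 830 and 1012 in wild type, did not overlap (log2 fold change -0.50, SE 0.32, limma adjusted p = 0.703). Those of cox6b1, all between 62.1 and 108, did not overlap either (log2 fold change -0.34, SE 0.16).

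Complex V, the ATP synthase, had 14 of 18 members lower in spt IM and a median of -0.28. For 7, all spt arrays lay below both wild-type arrays (38.9%, against 14.5% of all probe sets). The gene atp5mea, a copy of subunit e, which holds synthase dimers together, had 395, 1533 and 318 in spt and 3099 and 3635 in wild type. Both groups were apart, but 1 spt array lay far above the others (log2 fold change -2.58, SE 0.74, unadjusted p = 0.0166, limma adjusted p = 0.62). The other copy, atp5meb, had 1874, 2092 and 712 in spt and 2182 and 2257 in wild type (log2 fold change -0.76, SE 0.55). The epsilon subunit of the catalytic head, atp5f1e, had 915, 1479 and 737 in spt and 2256 and 2577 in wild type (log2 fold change -1.38, SE 0.41, limma adjusted p = 0.634). A small membrane subunit, atp5md, had 239, 286 and 354 in spt and 574 and 457 in wild type (log2 fold change -0.85, SE 0.31).

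Assembly factors help to build the complexes and are not part of them. Of 14, 11 had a lower value in spt IM, with a median of -0.44. The factor that adds the flavin to succinate dehydrogenase, sdhaf2, had 103, 107 and 62.1 in spt and 215 and 282 in wild type (log2 fold change -1.3, SE 0.27, unadjusted p = 0.00422, limma adjusted p = 0.479). For cox14, which acts in cytochrome c oxidase assembly, signals were 240, 277 and 72.3 in spt and 476 and 449 in wild type (log2 fold change -1.39, SE 0.57, limma adjusted p = 0.688).

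The ribosome subunits differed in their medians in IM. In the large subunit 28 of 38 members had a lower value in spt, with a median of -0.43, and in the small subunit 10 of 21, with a median of 0.00. This difference between the subunits was not tested. In the large subunit, mrpl49 had 296, 463 and 390 in spt and 1018 and 883 in wild type (log2 fold change -1.37, SE 0.34, unadjusted p = 0.00967, limma adjusted p = 0.581). The lowest value of the subunit was that of mrpl41, chosen after its values were seen, with 513, 199 and 23.2 in spt and 709 and 1220 in wild type (log2 fold change -2.64, SE 1.12). The spt arrays of mrpl41 were thus spread from 23.2 to 513. Further members at an unadjusted p under 0.05 were mrpl45, at a log2 fold change of -1.11 (SE 0.35), and mrpl52, at -1.64 (SE 0.58).

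In the small subunit, mrps18b, one of a trio of related proteins, had 80.4, 78.5 and 115 in spt IM and 197 and 200 in wild-type IM (log2 fold change -0.96, SE 0.22, unadjusted p = 0.00701, limma adjusted p = 0.557), and its other probe set was at -1.15. For mrps6 the values were 919, 1528 and 592 in spt and 2252 and 2240 in wild type (log2 fold change -1.35, SE 0.48, limma adjusted p = 0.679). Pointing the other way were mrps23, with 505, 195 and 882 in spt and 145 and 141 in wild type (log2 fold change 1.5, SE 0.63), and mrps34, at 1.67 (SE 0.99), both chosen after their values were seen. In mrps34 one spt array, at 185, lay with the wild-type arrays at 195 and 239, and the others were at 1256 and 1679.

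**Figure D2:**
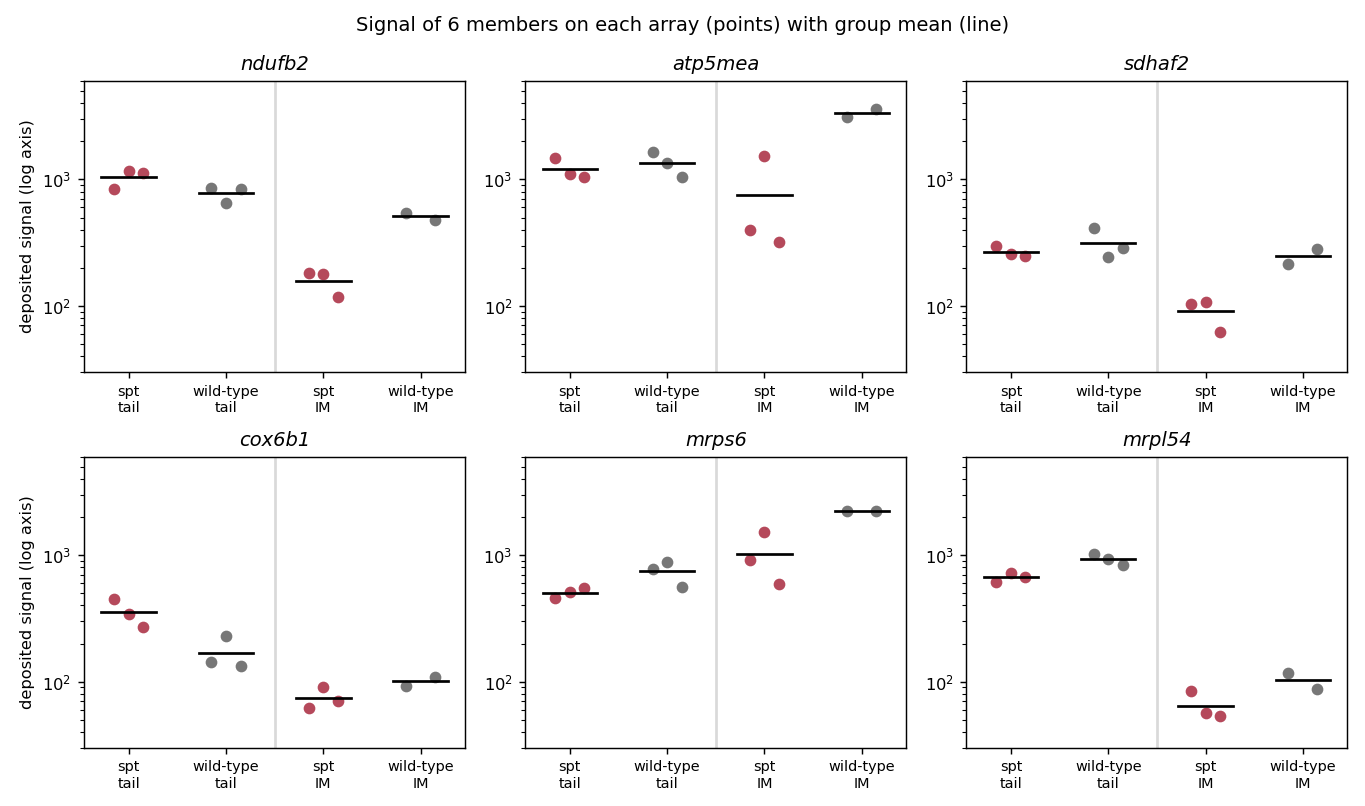
Deposited signal (log axis) of 6 members on each array, with points for arrays and lines for group means, in spt tail, wild-type tail, spt IM and wild-type IM. The spt IM arrays of ndufb2 lay at 117 to 181, below wild-type IM at 476 and 545, whereas its tail groups overlapped, and cox6b1 was higher on all spt tail arrays (272 to 446) than on wild-type tail arrays (132 to 228).

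In tail, the same question was put to the tissue of the posterior somites. No member passed the adjusted threshold, against 0.181% of all probe sets called higher and 0.51% called lower. At an unadjusted p under 0.05, 2 members were higher (1.33%, against 3.91% of all) and 4 were lower (2.67%, against 3.54%). The values were small but mostly of a single sign: 112 of 150 members had a lower value in spt (74.7%, against 49.9% of all probe sets). All spt arrays lay below all wild-type arrays for 24 members (16%, against 6.2%) and above for 2, cox6b1 and mrps18a (1.33%, against 6.01%). Without wild-type replicate 3 the count lower at an unadjusted p under 0.05 was 11, and without spt replicate 5 or 6 it was 2. Without wild-type replicate 1 the count higher was 1. No share of all probe sets was computed for these counts with an array left out. The test with the study's limits, again on the values as normalized here, had a lower limit on the fold in tail. Unadjusted, it gave 1 member higher (0.667%, against 1.94% of all probe sets) and 4 lower (2.67%, against 2.23%). The arrays of the tail scattered little, with a median SD of the members of 0.13 on the log2 scale in spt and 0.21 in wild type.

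Lower values were more frequent among the ribosome genes than among the respiratory genes, a difference that was not tested. Of 59, 52 had a lower value in spt tail (88.1%), with a median log2 fold change of -0.17. For 15, all spt arrays lay below all wild-type arrays (25.4%, against 6.2% of all probe sets), and for 1 above (1.69%, against 6.01%). A lower value was seen for 18 of 21 small-subunit members (median -0.14) and 34 of 38 large-subunit members (median -0.17). Of the 91 respiratory genes, 60 had a lower value, with a median of -0.04. The median deviation of the ribosome genes was -0.09, -0.07 and -0.11 on the 3 spt arrays, and 0.07, 0.10 and 0.07 on the 3 wild-type arrays, so the groups of arrays did not overlap. That of the respiratory genes was -0.06, -0.01 and 0.03 in spt and -0.03, 0.01 and 0.07 in wild type, which overlapped.

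In the large subunit, mrpl54 had 611, 728 and 674 in spt tail and 1013, 936 and 829 in wild-type tail (log2 fold change -0.47, SE 0.14, unadjusted p = 0.00934, limma adjusted p = 0.331). The stalk protein mrpl12 had 1360, 1226 and 1245 in spt and 1687, 1496 and 1611 in wild type (log2 fold change -0.34, SE 0.12, limma adjusted p = 0.459). In the small subunit, mrps6 had 455, 508 and 549 in spt and 784, 887 and 564 in wild type (log2 fold change -0.53, SE 0.19, limma adjusted p = 0.447). These 3 genes had no overlap between genotypes, and mrps6 also had none in IM. The values of mrps31 were 392, 408 and 358 in spt and 453, 553 and 414 in wild type (log2 fold change -0.30, SE 0.16).

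Among the complexes in tail, class medians lay between -0.09 (complex V) and 0.04 (complex IV). In complex IV 9 of 14 members had a higher value in spt. The copy cox6b1 had 446, 340 and 272 in spt and 142, 228 and 132 in wild type, without overlap (log2 fold change 0.99, SE 0.25, unadjusted p = 0.00306, limma adjusted p = 0.19). The other copy, cox6b2, had 5565, 5168 and 5596 in spt and 5569, 4868 and 5178 in wild type (log2 fold change 0.10, SE 0.09). The second member higher at an unadjusted p under 0.05 was ndufa4b, grouped here with complex I by its name although its protein family was later assigned to complex IV, with 211, 120 and 143 in spt and 59.5, 133 and 65.0 in wild type (log2 fold change 0.80, SE 0.28, limma adjusted p = 0.462). Its groups overlapped, and the other copy, ndufa4a, was at 0.07 (SE 0.15) with signals from 3315 to 4731.

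The other complexes gave smaller values in tail. In complex I, ndufb2 had 844, 1165 and 1119 in spt and 850, 653 and 844 in wild type (log2 fold change 0.38, SE 0.19), and ndufv2, an iron-sulfur core subunit, had 1084, 880 and 877 in spt and 1181, 1067 and 1109 in wild type (log2 fold change -0.26, SE 0.14). In complex II, sdhb was at -0.28 (SE 0.22) and sdha at 0.09 (SE 0.13). In complex III, 7 of 8 members had a lower value, but the largest were -0.25 (SE 0.23) for the core protein uqcrc1 and -0.22 (SE 0.13) for uqcrc2a. In complex V, 12 of 18 were lower, among them atp5if1a, an inhibitor of the synthase, at -0.18 (SE 0.12), and atp5f1e, at -0.17 (SE 0.14). Of the 14 assembly factors 13 had a lower value, with a median of -0.20. For 5 of them all spt arrays lay below all wild-type arrays (35.7%, against 6.2% of all probe sets). Here cox10, which makes heme O for cytochrome c oxidase, had 620, 700 and 719 in spt and 873, 832 and 846 in wild type (log2 fold change -0.33, SE 0.14, unadjusted p = 0.0415, limma adjusted p = 0.626), and ndufaf4, a complex I factor, was at -0.30 (SE 0.14).

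**Figure D3:**
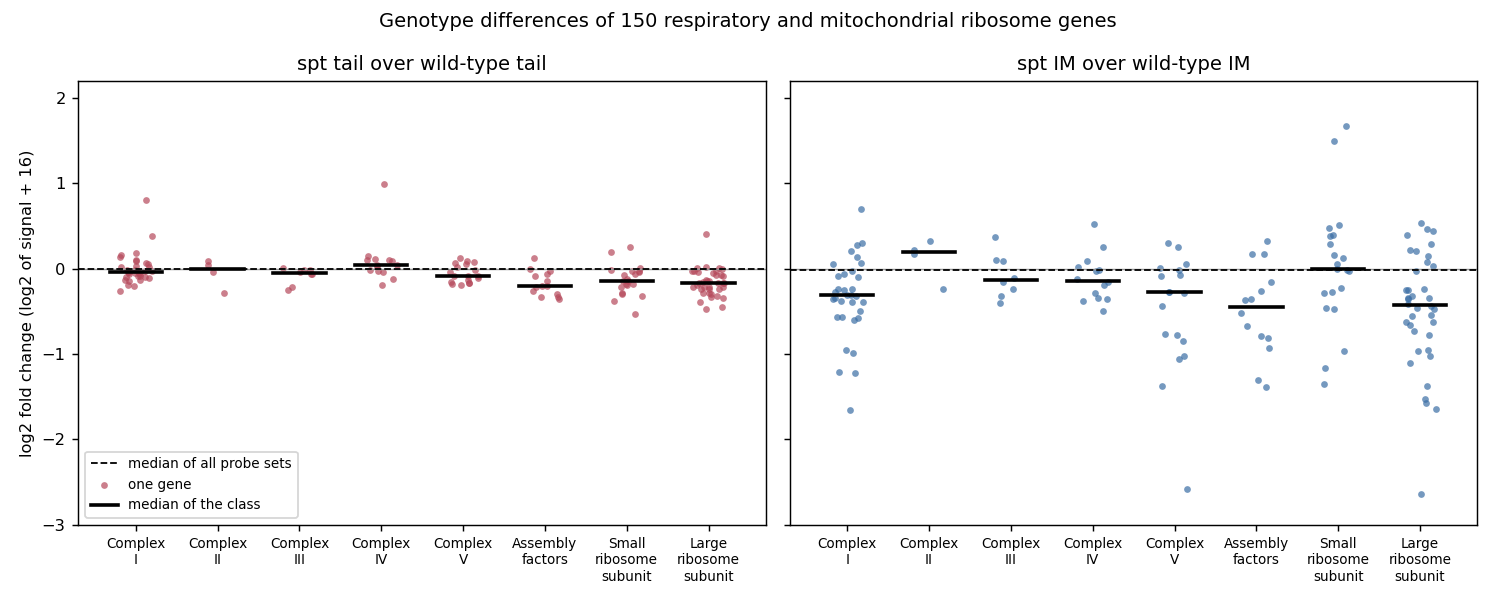
Log2 fold change of spt over wild type for each of the 150 genes (points), by class, in tail (left) and IM (right), computed on log2 of signal + 16, with class medians as thick lines and the median of all probe sets dashed. In tail the ribosome classes lay below 0 with a narrow spread (medians -0.14 and -0.17), and in IM the genes spread over a range from -2.64 to 1.67.

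Other genes of mitochondrial function, from lists of known roles, had list medians of the same sign in tail, although each list held genes of both signs. The share with a lower value ran from 57.1% (electron carriers) to 85.7% (translation and transcription), against 49.9% of all probe sets. Of 28 measured genes of mitochondrial translation and transcription, 24 had a lower value in spt (median -0.14), of 38 import and chaperone genes 29 (median -0.13), of 19 assembly factors with other names 16 (median -0.21), of 26 genes of the TCA cycle and pyruvate entry 19 (median -0.06), of 18 carriers and channels 13 (median -0.12), of 13 genes of mitochondrial dynamics and cristae 11 (median -0.10), of 13 regulators of mitochondrial biogenesis 9 (median -0.18) and of 14 genes of cytochrome c and other electron carriers 8 (median -0.09). None of these passed the adjusted threshold in either direction. In IM the same lists had medians from -0.21 (biogenesis regulators) to -0.01 (dynamics and cristae), and none passed there either.

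Several lists of tissue markers also moved with genotype in tail. Fast and slow muscle genes (23 measured) summed to 15750 to 18361 in spt and 24984 to 31906 in wild type, with 5 called lower, and myogenic regulators (9 measured) to 3228 to 3629 in spt and 5795 to 6470 in wild type, with 4 called lower. Presomitic and paraxial mesoderm genes (13 measured) summed to 9188 to 9661 in spt and 15658 to 20730 in wild type, with 7 called lower. Globins summed to 964 to 1124 in spt and 7734 to 12313 in wild type, with 3 of 5 called lower, and other erythroid genes had 9 of 12 called lower. Neural genes (17 measured) summed to 19081 to 19519 in spt and 13207 to 15241 in wild type, with none called. Epidermal genes (12 measured) summed to 27807 to 39489 in spt and 23330 to 31571 in wild type, which overlapped, also with none called. Sums of the notochord, yolk and intermediate mesoderm lists overlapped as well, with 1 gene of the last called higher. The part of these shifts in the values of the members was not tested.

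Whether the genotype difference itself differed between tail and IM was tested as an interaction over all 11 arrays, as the tail difference minus the IM difference. This fit assumed a shared spread for both stages. The median SD of the members was 0.41 in spt IM and 0.27 in wild-type IM, but 0.13 in spt tail and 0.21 in wild-type tail. A single member passed, ndufb2, at 2.04 (SE 0.35, limma adjusted p = 0.0389), against 0.232% of all probe sets called in this direction, and no member was called in the other, against 0.252%. Its signals were 844, 1165 and 1119 in spt tail and 850, 653 and 844 in wild-type tail, and 181, 178 and 117 in spt IM and 545 and 476 in wild-type IM. The call was lost with quantile normalization over all arrays (adjusted p = 0.0547) and without any one of 7 arrays, namely wild-type IM replicate 1 or any of the 6 tail arrays (adjusted p from 0.0676 to 0.146), while the value stayed between 1.86 and 2.19 with any single array left out. Over all alternatives the adjusted p ranged from 0.0218 to 0.146. Without spt IM replicate 4, 5 members were called higher (3.33%, against 1.39% of all probe sets) and 2 lower (1.33%, against 1.42%). At an unadjusted p under 0.05, 13 members were higher (8.67%, against 4.41% of all probe sets) and 1 was lower (0.667%, against 4.87%). The lower one was mrps23, at -1.82, and among the higher ones was cox6b1, at 1.34 (SE 0.35, limma adjusted p = 0.187), whose IM signals lay near or below 100.

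Tail was then set against IM within each genotype. Stage, tissue, cell sorting and RNA amplification differed together here and cannot be told apart. Values in these comparisons are signals after quantile normalization over all 11 arrays. The median of all probe sets was -0.13 in spt and -0.12 in wild type on the log2 scale, but 0.42 and 0.41 with the deposited scaling, where 6065 probe sets were called higher and 1749 lower in spt, and 5622 higher and 1700 lower in wild type. With the normalization over all arrays, these were 3396 higher and 4122 lower in spt, and 3222 higher and 3928 lower in wild type. Directions of small differences thus depended on the scaling, and class medians are given after subtraction of the median of all probe sets.

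Of the 150 members, 53 were called higher in spt tail than in spt IM (35.3%, against 21.9% of all probe sets) and 19 lower (12.7%, against 26.6%). In wild type 46 were called higher (30.7%, against 20.8%) and 20 lower (13.3%, against 25.3%). With the deposited scaling the members split in spt into 69 higher (46%, against 39.1% of all probe sets) and 11 lower (7.33%, against 11.3%), and in wild type into 60 higher (40%, against 36.3%) and 13 lower (8.67%, against 11%), nearer to the shares of all probe sets. The respiratory genes accounted for 44 of those called higher in spt (48.4% of the class) and 35 in wild type (38.5%). They accounted for 9 (9.89%) and 10 (11%) of those called lower. Of the 59 ribosome genes, 9 were higher (15.3%) and 10 lower (16.9%) in spt, and 11 higher (18.6%) and 10 lower (16.9%) in wild type. These shares lay below those of all probe sets in both directions. The respiratory median over that of all probe sets was 0.81 in spt and 0.56 in wild type, and 0.56 and 0.21 with the deposited scaling. The ribosome median was 0.11 in spt and 0.03 in wild type. Without wild-type IM replicate 1, which left a lone wild-type IM array, the respiratory median in wild type fell to 0.41 and the ribosome median to -0.17. The share of members called higher in wild type then also came near that of all probe sets. The spt and wild-type comparisons share no array, but they were fitted and normalized together, and each uses the arrays of the comparisons of genotypes. Their fit also assumed a shared spread for all groups.

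The ATP synthase stood highest among the larger classes, with medians of 1.82 in spt and 1.43 in wild type over all probe sets. Of its 18 members, 14 were called higher in spt (77.8%, against 21.9% of all probe sets) and 13 in wild type (72.2%, against 20.8%). The difference was greatest among all members for atp5l, subunit g of the membrane part, with 3199 ± 367 in spt tail and 279 ± 42.7 in spt IM, and 3064 ± 644 in wild-type tail and 221 ± 45.1 in wild-type IM (SD, n = 3, 3, 3 and 2). Its log2 fold change was 3.45 (SE 0.22, limma adjusted p = 2.57e-06) in spt and 3.69 (SE 0.25, limma adjusted p = 4.9e-06) in wild type. A dimmer probe set of atp5l had the opposite sign, at -2.49 in spt and -1.63 in wild type, both past the threshold. The catalytic beta subunit atp5f1b rose by 1.94 (SE 0.16) in spt and 1.91 (SE 0.17) in wild type. The copy atp5mc3b of the proton-carrying subunit c rose by 2.14 (SE 0.14) in spt and 1.88 (SE 0.15) in wild type, and the other copies, atp5mc1 and atp5mc3a, by 1.87 and 1.13 in spt and 1.78 and 0.96 in wild type.

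The copies of subunit e were among the members of the synthase not called higher in tail in either genotype, as was atp5mf, at -0.03 in spt and -0.76 in wild type. In spt, atp5mea averaged 1151 ± 264 in tail and 819 ± 595 in IM (log2 fold change 0.68, SE 0.41, limma adjusted p = 0.189), and in wild type 1337 ± 302 in tail and 3113 ± 423 in IM (log2 fold change -1.23, SE 0.45, limma adjusted p = 0.0475). For atp5meb the log2 fold change was -0.20 (SE 0.30) in spt and -0.84 (SE 0.33) in wild type. By the test of the interaction no member of complex V, atp5mea included, passed the threshold (smallest limma adjusted p, 0.251). The inhibitors atp5if1a and atp5if1b were higher in tail, at 1.75 and 2.70 in spt and 1.11 and 1.73 in wild type, all past the threshold.

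In complex IV, 9 of 14 members were called higher in tail in spt (64.3%, against 21.9% of all probe sets) and 8 in wild type (57.1%, against 20.8%). The medians were 1.13 and 0.84 over all probe sets. The subunit cox6a1 averaged 4911 ± 179 in spt tail and 802 ± 39.1 in spt IM, and 4790 ± 323 in wild-type tail and 1063 ± 156 in wild-type IM (log2 fold change 2.59, SE 0.13, limma adjusted p = 7.03e-07 in spt, and 2.16, SE 0.15, limma adjusted p = 5.19e-06 in wild type). Both copies of subunit 5A rose, cox5aa by 1.95 in spt and 2.06 in wild type, and cox5ab by 2.71 and 2.54, and cox7b rose by 2.19 and 2.29. The copy cox6b2 had lower values in tail, at -0.46 (SE 0.08) in spt and -0.56 (SE 0.09) in wild type, both past the threshold, and cox6b1 differed in spt (1.38, SE 0.23, limma adjusted p = 0.000847) with 0.02 (SE 0.26) in wild type. The deposited IM signals of cox6b1 lay near or below 100, which limits what the size of its values can show. The subunit 4 isoform cox4i2 was at 0.75 in spt, past the threshold, and 0.47 in wild type. The related cox4i1l was called lower, at -0.61 in spt and -0.73 in wild type, but its sign in spt turned with the deposited scaling (0.14).

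Complexes I, II and III had most of their members above the median of all probe sets in tail. In complex I, 14 of 33 members were called higher in spt (42.4%, against 21.9% of all probe sets) and 7 in wild type (21.2%, against 20.8%, thus at the share of all probe sets), with medians of 0.73 and 0.42. The acyl carrier protein ndufab1b rose most, to 2318 ± 179 in spt tail, against 363 ± 50.2 in spt IM, and to 2162 ± 442 in wild-type tail, against 312 ± 24.4 in wild-type IM (log2 fold change 2.63 and 2.71, limma adjusted p = 6.52e-06 and 1.43e-05). The core subunit ndufs1 rose by 1.06 in spt and 0.84 in wild type. In spt, ndufb2 averaged 959 ± 204 in tail and 226 ± 48.6 in IM (log2 fold change 2.01, SE 0.25, limma adjusted p = 0.00011), and in wild type 687 ± 126 in tail and 663 ± 35.5 in IM (log2 fold change 0.04, SE 0.28). Against this, ndufv2 averaged 846 ± 108 in spt tail and 2700 ± 517 in spt IM, and 1052 ± 52.3 in wild-type tail and 3641 ± 341 in wild-type IM (log2 fold change -1.65, SE 0.18, and -1.77, SE 0.20), although its dimmer probe set was at 0.25 and 0.45 and passed in neither genotype.

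In complex II, 3 of 4 members were called higher in both genotypes (75%, against 21.9% of all probe sets in spt and 20.8% in wild type). The iron-sulfur subunit sdhb rose by 2.05 in spt and 2.13 in wild type, and the membrane anchors sdhdb by 1.75 and 2.0 and sdhc by 1.31 and 1.43, while sdha was at -0.11 (SE 0.20) in spt and 0.05 (SE 0.22) in wild type. In complex III, 2 of 8 members were called higher in both genotypes (25%), near the shares of all probe sets, 21.9% in spt and 20.8% in wild type. In both, 1 was called lower (12.5%, against 26.6% and 25.3%). The small subunit uqcrq rose by 3.15 (SE 0.26) in spt and 2.72 (SE 0.29) in wild type and cyc1 by 0.99 and 1.26, and the core protein uqcrc2a fell by 0.97 in spt and by 0.95 in wild type. The dimmer probe set of uqcrc2a was at -0.02 in spt and -0.72 in wild type, past the threshold only in wild type (limma adjusted p = 0.0464).

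The assembly factors ran below the subunits, with medians of -0.09 in spt and -0.61 in wild type over all probe sets. In each genotype 4 of 14 were called lower (28.6%), near the shares of all probe sets, 26.6% in spt and 25.3% in wild type. In each, 2 were called higher (14.3%, against 21.9% and 20.8%). The heme O synthase cox10 averaged 572 ± 50.6 in spt tail and 2662 ± 654 in spt IM (log2 fold change -2.16, SE 0.20, limma adjusted p = 1.87e-05), and 755 ± 38.8 in wild-type tail and 3051 in wild-type IM, where both normalized values were equal (log2 fold change -1.99, SE 0.23, limma adjusted p = 8.15e-05). Its dimmer probe set was at 0.60 in spt and 0.41 in wild type, past the threshold in spt (limma adjusted p = 0.0392). The copper-insertion factor cox11 was called higher in both genotypes, with deposited signals of 336 to 484 in spt tail and 349 to 493 in wild-type tail, but it lay below 100 on every IM array (41.7 to 77.8), so no fold is given. The complex I factor ndufaf1, at -1.31 and -1.80, had a dimmer probe set at 0.28 and 0.79.

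**Figure D4:**
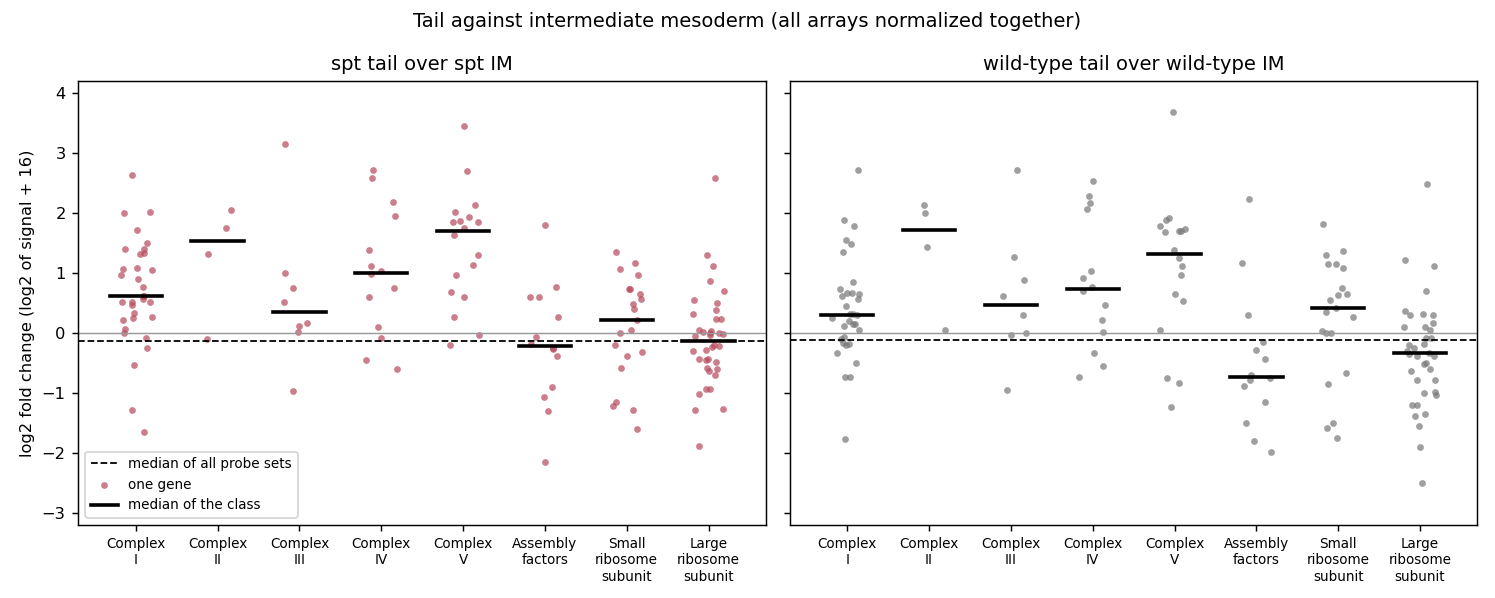
Log2 fold change of tail over IM for each of the 150 genes (points), by class, in spt (left) and wild type (right), on log2 of signal + 16 after quantile normalization over all arrays, with class medians as thick lines and the median of all probe sets dashed, at -0.13 and -0.12. Complexes II, IV and V lay highest and the assembly factors and the large ribosome subunit lowest.

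The ribosome genes were called in both directions between tail and IM, as a set less often than all probe sets. In the small subunit, 6 of 21 were called higher in spt (28.6%, against 21.9% of all probe sets) and 4 lower (19%, against 26.6%). In wild type 8 were higher (38.1%, against 20.8%) and 4 lower (19%, against 25.3%). In the large subunit 3 of 38 were higher in each genotype (7.89%) and 6 lower (15.8%), below the shares of all probe sets in both directions. The greatest rise was that of mrpl54, with 562 ± 55.0 in spt tail and 82.9 ± 27.5 in spt IM, and 832 ± 49.7 in wild-type tail and 136 ± 32.3 in wild-type IM (log2 fold change 2.58, SE 0.22, and 2.49, SE 0.25). The normalized mean of mrpl54 in spt IM lay below a signal of 100, which limits what the size of this rise can show. Less marked, mrpl40 rose by 1.3 in spt and 1.11 in wild type. At the other end mrpl45 averaged 411 ± 105 in spt tail and 1567 ± 377 in spt IM, and 536 ± 210 in wild-type tail and 2983 ± 391 in wild-type IM (log2 fold change -1.89, SE 0.31, and -2.50, SE 0.35). The small-subunit genes mrps6 and mrps16 were lower in tail as well, at -1.28 and -1.16 in spt and -1.76 and -1.51 in wild type. Some members passed in a single genotype, such as mrps18b (1.34 in spt, 0.41 in wild type) and mrpl49 (-0.43 in spt, -1.38 in wild type), and for these the interaction was not past the threshold (limma adjusted p = 0.365 and 0.22). The dimmer probe set of mrps18b was at -0.44 in spt and -1.32 in wild type, and the sign of mrpl49 in spt turned with the deposited scaling (0.26).

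Probe sets of a gene did not always move together. Of 16 members with several probe sets, the sign differed between probe sets for 7 in spt against wild-type IM, for 5 in spt against wild-type tail and for 10 in tail against IM in either genotype. With both probe sets at an unadjusted p under 0.05, opposed signs were seen for atp5l and cox10 in spt and for atp5l, mrps5 and ndufaf1 in wild type, and for none in the comparisons of genotypes.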

How the data were processed

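RNA was hybridized to single-colour Affymetrix arrays. The intensity values that the authors deposited came from MAS5 5.0, were linear and had already been scaled, by a method not given in the sources used here. The wild-type IM array that the authors excluded was not used. Of 15617 probe sets, 115 controls were left out. The annotation gave 10795 probe sets 1 symbol, 135 several and 4572 none, and 2 probe sets naming a member beside another gene were not counted.

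Signals were quantile-normalized within each stage (tail against IM: over all 11 arrays), and 16 was added. A model was fitted to the log2 values in limma 3.58.1 in R 4.3.3 with a variance trend. The fits were tested on simulated data. All adjusted p-values are by Benjamini-Hochberg over 15502 probe sets, with a threshold of 0.05, and unadjusted p-values are from the same fits. Standard errors are from limma, and means are given with SD. Members and lists were chosen with earlier results of these data known. Named genes were core subunits, copies, and the members of each class with the smallest p in each comparison, with a signal minimum of 100 where none passed. Outside this rule, mrpl41, mrpl52, atp5md, mrps23, mrps34, and in single comparisons atp5meb, atp5mf, cox6b1, ndufb2, mrps18b and mrpl49 were named after their values were seen. Alternatives were run for each count, each median and the genes named in a comparison, and covered scaling, pseudocount, dim probe sets, the choice of probe set, the variance trend, the arrays in the fit and single arrays left out. Replicate numbers shared by tail and IM arrays did not pair them. The number of arrays limits the precision. Figures were drawn with matplotlib.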

Additional observations from a re-analysis of the deposited data

Results flagged for a closer look

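The genotype difference of ndufb2 differed between the stages by the test of the interaction, at 2.04 on the log2 scale (tail difference minus IM difference, SE 0.35, limma adjusted p = 0.0389). It was 0.38 (SE 0.19) in tail and -1.66 (SE 0.27) in IM. The paper's in situ hybridization, at the earlier stage, listed ndufb2 in paraxial mesoderm and not in IM, with the same expression in spt and wild-type embryos. No group held enough arrays for a test of single outlying arrays.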

How the results depend on the processing

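In spt against wild-type IM, 0 members were called, but 5 were called lower in one fit of all arrays (3.33%, against 1.08% of all probe sets). That fit called 168 of all probe sets lower and 170 higher, where the main fit called 0. At an unadjusted p under 0.05 it had 31 members lower and 3 higher. No share of all probe sets was computed for these counts, so they cannot be read as a trait of the members. The shared spread of that fit also took in the smaller scatter of the members in tail. By the t-test with the study's limits 8 were lower, and 0 after Benjamini-Hochberg. In spt against wild-type tail that test gave 1 higher and 4 lower, and 0 after Benjamini-Hochberg. There, 7 members were lower at an unadjusted p under 0.05 without the variance trend and 1 in one fit of all arrays, also without a computed share of all probe sets. For the interaction, 0 members were called with quantile normalization over all arrays. For wild-type tail against IM, 13 were called lower with the deposited scaling, and the respiratory median was 0.21 with it and 0.23 with normalization within each stage. For spt tail against IM, 11 were called lower with either of these, with respiratory medians of 0.56 and 0.58, and the ribosome median was 0.05 without dim probe sets and 0.15 with the mean of a gene's probe sets. With the replicate block, 9 members were called lower in spt and the ribosome median was 0.00, while 40 were called higher in spt and 33 in wild type. The block followed the array numbers of the sample titles. These joined an spt IM array with a wild-type tail array and left 1 spt tail array alone, so the block is no pairing of samples. Same-numbered tail and IM arrays deviated together with r of only 0.003 to 0.044, and the block moved no other count of called members by over 1.5 times.

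Signs turned for some genes between tail and IM. With the deposited scaling and with normalization within each stage, these were in spt cox4i1l (0.14 and 0.11), ndufs7 (-0.17 and -0.14), sdha (0.11 and 0.14), uqcrfs1 (-0.28 and -0.22), ndufa4a (-0.23 and -0.19) and mrpl49 (0.26 and 0.25), and in wild type ndufv1 (0.51 and 0.46), uqcrfs1 (-0.02 and -0.08) and ndufa4a (-0.21 and -0.31). With the replicate block they were sdha (0.03), atp5meb (0.05) and atp5mf (0.21) in spt and ndufb2 (-0.08) in wild type, and with the mean of its probe sets mrps18b (-0.45) in wild type. The causes were not tested.

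With single arrays left out, 0 members were called in either comparison of genotypes. At an unadjusted p under 0.05, up to 20 members were lower and 0 to 3 higher in IM with 1 spt array left out. The count lower fell without either wild-type array. In tail 2 to 11 were lower and 1 to 2 higher. No share of all probe sets was computed for these counts. The respiratory and ribosome medians ranged from -0.39 to -0.08 and from -0.40 to -0.19 in IM, and from -0.09 to 0.00 and from -0.19 to -0.13 in tail. For the interaction, 0 to 5 members were called higher and 0 to 2 lower, with medians from 0.10 to 0.33 and from 0.02 to 0.16. For spt tail against IM, 44 to 57 were called higher and 14 to 21 lower, with medians from 0.64 to 0.92 and from -0.03 to 0.11. For wild-type tail against IM, 28 to 47 were called higher and 15 to 27 lower, with medians from 0.41 to 0.64 and from -0.17 to 0.06. Signs turned for sdhb in IM (-0.57 to 0.09) and ndufa4a in tail (-0.03 to 0.22). Between tail and IM they turned in spt for ndufs7 (-0.01 to 0.16), sdha (-0.21 to 0.05), atp5meb (-0.58 to 0.05) and atp5mf (-0.41 to 0.24), and in wild type for ndufv1 (-0.36 to 0.17), sdha (-0.09 to 0.19), cox6b1 (-0.17 to 0.19), ndufa4a (-0.02 to 0.22), ndufa4b (-0.12 to 0.28) and ndufb2 (-0.08 to 0.19). With 2 wild-type IM arrays, leaving either out left a lone array assumed to vary like the other groups. In IM, cox11, ndufa4b and sdhaf3 did not reach a signal of 100 on any array, which limits what their values in tail against IM can show.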
